A study of Mus musculus with 74 samples.

Results

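The hindstomach, the glandular part of the mouse stomach, was compared with the small intestine at embryonic day 14 (E14). The comparison rested on 4 RNA-seq libraries, 2 of each epithelium, out of 74 samples in the series (31 of RNA-seq, 38 of ATAC-seq and 5 of ChIP-seq). The 4 libraries were taken by their organ and stage labels, but the comparison and the gene lists were chosen with earlier results of these data known. Wild-type CD1 embryos were the source of both groups, and the labels list no allele or agent for either. Each organ was dissociated with trypsin, cells bearing the epithelial surface protein Epcam were taken by flow cytometry, and a low-input SMARTer kit was used, per the labels' protocols. The labels do not say whether 2 libraries of a group came from separate litters or pools, so p-values measure only the spread between libraries of a group. That spread was estimated over all 27 embryonic libraries of the fit, not from these 4 alone. The cell type of the small intestine group is given as midgut. Libraries labelled as the same organs at E12 and E16, again 2 each, were set beside E14, and those labelled E12 hindstomach went against their label in some genes, as described with the E12 results. The fit that gave the p-values also held other embryonic libraries, 7 of them from small intestine with Cdx2 deleted at E10, E13 or E15.

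The stomach and the intestine arise from one continuous tube of endoderm. Cdx2, a homeodomain transcription factor, specifies the intestine and restrains stomach genes there, whereas Sox2, an HMG-box factor, marks the stomach and esophagus. By mid-gestation the intestinal lining begins to make enterocyte proteins for lipid and nutrient uptake, and the gastric lining begins to make mucins and digestive proteases.

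Total counts were 21910062 and 20449108 in hindstomach and 62463167 and 20458113 in small intestine, so that 1 small intestine library was the deepest of the 4. Spearman's rho between replicates was 0.994 in hindstomach and 0.993 in small intestine, over the 17239 genes tested, and 0.960 to 0.963 between organs. All 12 markers of gut epithelium had counts in every one of the 4 libraries and took 0.709% and 0.730% of hindstomach counts and 0.657% and 0.644% of small intestine counts. By edgeR 0 of these 12 were called, while 4 were higher and 2 lower at an unadjusted p under 0.05. Mesenchyme and smooth muscle markers (17 genes) took 0.0170% and 0.0184% in hindstomach and 0.0422% and 0.0491% in small intestine (7 called lower in hindstomach and 1 higher), with Twist2 or Nkx3-2 at 0 counts in 1 hindstomach library each. Immune markers (9 in the table) took 0.00120% and 0.00138% against 0.0110% and 0.0112%, and 8 of them were called lower in hindstomach. The red blood cell list took at most 0.00566%, and endothelial markers took at most 0.000443%. In the blood list 6 globin genes were at 0 in all 27 embryonic libraries, also in E16 forestomach, where the list took 1.54% and 1.99%. The red blood cell share thus rests on the other 4 genes of its list. Markers of nerve and glia took 0.00395% to 0.00485% over the 4 libraries, and those of mesothelium 0.0251% to 0.0380%. The mesothelium list holds Krt7, which is also on the keratin list. In E12 small intestine replicate 1 its other 4 members were at 0, yet the list took 0.0119%. Fewer cells of a type and less RNA per cell cannot be told apart in such bulk samples.

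**Figure D1:**
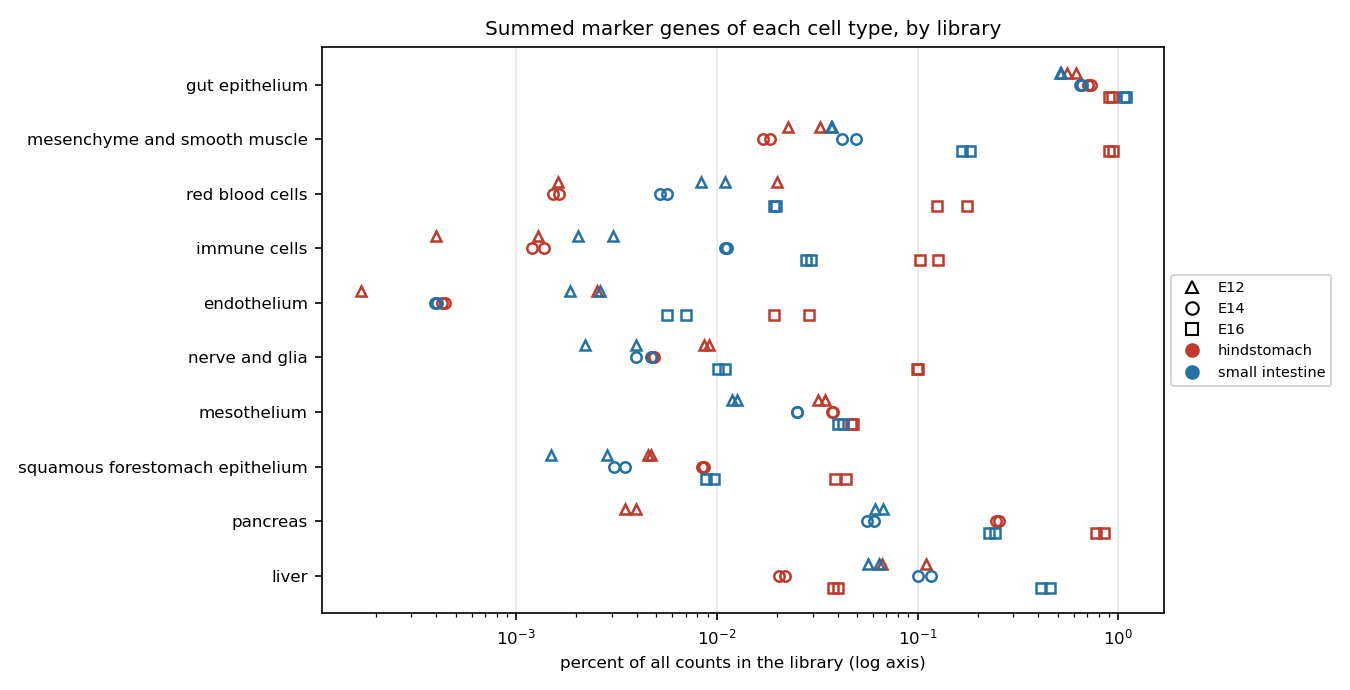
Percent of all counts (log axis) taken by each list of cell type markers, 1 point per library, red for hindstomach and blue for small intestine, with the shape of the point giving the day. At E14 (circles) the mesenchyme list stood at 0.0170% and 0.0184% in hindstomach against 0.0422% and 0.0491% in small intestine, and the pancreas list at 0.247% and 0.255% against 0.0608% and 0.0563%.

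Levels are given as CPM (read counts scaled to the library's size, as edgeR computes them), with TMM scaling, and differences as log2 fold changes of hindstomach over small intestine. Calls required an adjusted p (Benjamini-Hochberg, from the quasi-likelihood test of edgeR) under 0.05 together with a log2 fold change of 1 or more in either direction. At E14, 1178 of 17239 genes (6.83%) were called. Of these, 601 (3.49%) were higher and 577 (3.35%) lower in hindstomach, and the median log2 fold change over all tested genes was -0.01. The numbers depended on each library. Without hindstomach replicate 1 there were 379 higher and 309 lower, without hindstomach replicate 2 there were 395 and 319, without small intestine replicate 1 there were 305 and 365, and without small intestine replicate 2 there were 352 and 501. With the libraries thinned to the smallest total there were 597 higher and 556 lower. A fit of only these 4 libraries called 1440 higher and 1040 lower among 14283 genes.

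**Figure D2:**
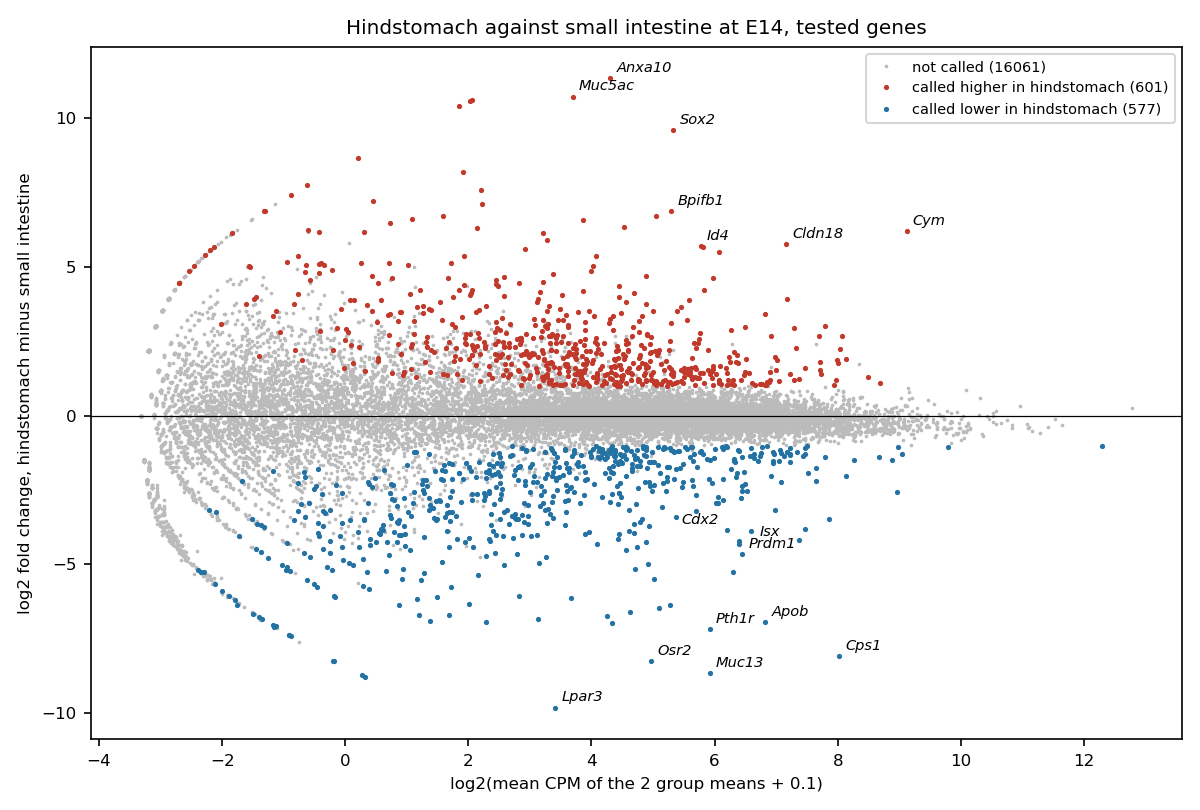
Log2 fold change of hindstomach over small intestine at E14 (vertical) against log2 of the mean CPM plus 0.1 (horizontal) for the 17239 tested genes. Red points mark the 601 genes called higher and blue points the 577 called lower. Among the called genes Sox2 lies at 9.59 and Apob at -6.95.

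Cdx2, which specifies the intestine, stood at 12.7 and 6.20 CPM in the hindstomach libraries and at 123 and 152 CPM in the small intestine libraries. Both hindstomach values lay far below both small intestine values, a log2 fold change of -3.86 (SE 0.32, adjusted p = 2.17e-07). Both E14 forestomach libraries had 0 Cdx2 counts.

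Of 17 intestinal transcription factors tested, 9 were lower in hindstomach, 2 were higher and 6 were not called, and the list's median log2 fold change was -2.16. Leaving out a library gave 7 lower and 1 to 2 higher. Prdm1, a zinc-finger repressor of the immature intestine, stood at 7.30 and 6.13 CPM in hindstomach and 163 and 173 CPM in small intestine (log2 fold change -4.65, SE 0.26, adjusted p = 7.9e-10). Isx, an intestine-specific homeobox gene, had 11.7 and 12.5 CPM against 184 and 177. Cdx1, the close relative of Cdx2, had 0.353 and 0.338 CPM against 12.1 and 10.8. The groups did not overlap for any of these genes, which was also so for 65.6% of all genes tested. Smaller differences in the same direction were measured for the leucine-zipper factor Maf (log2 fold change -3.56, SE 0.55), the bile acid receptor Nr1h4 (-2.99, SE 0.34), the cut-domain factor Onecut2 (-2.85, SE 0.24), Tfcp2l1 (-2.16, SE 0.61) and the nuclear receptor Hnf4g (-1.06, SE 0.31). Hnf4a, the partner of Hnf4g, had 118 and 117 CPM against 219 and 262 and missed the threshold (log2 fold change -1.04, SE 0.34, adjusted p = 0.058). Higher in hindstomach were Vdr, the vitamin D receptor, at 10.4 and 10.2 CPM against 1.93 and 2.29, and Klf4, a zinc-finger factor, at 25.8 and 33.0 CPM against 16.2 and 12.9. Leaving out any 1 of the 4 libraries ended the calls of Tfcp2l1 (adjusted p 0.0561 to 0.194) and Hnf4g (0.085 to 0.206). Vdr lost its call without small intestine replicate 1 (0.0704), and Klf4 without hindstomach replicate 2 (log2 fold change 0.82) or small intestine replicate 2 (0.85).

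Stomach and foregut factors went the other way, with 12 of 23 higher in hindstomach, 2 lower and 9 not called, and a list median of 1.70. There were 9 to 10 higher and 1 to 2 lower when any library was left out. Sox2 stood at 92.3 and 68.2 CPM in hindstomach and at 0.122 and 0.0394 CPM in small intestine, that is 9 counts in the deep library and 1 in the other (log2 fold change 9.59, SE 0.69, adjusted p = 6.7e-08). Sox21, another SOX-family factor, had 123 and 141 CPM against 3.14 and 2.56. The homeodomain factors Nkx6-2 and Nkx6-3 had 48.5 and 48.7 CPM against 3.18 and 2.41, and 54.5 and 55.2 CPM against 5.05 and 3.08. Both hindstomach values of each of these genes stood above both small intestine values, and 65.6% of all tested genes had groups that did not overlap, in one direction or the other.

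Irx5, Irx3 and Irx2, homeobox genes of the Iroquois family, were among the 12 higher genes of this list. Irx5 had 6.84 and 7.22 CPM in hindstomach and 0 counts in both small intestine libraries, at least 88.4-fold higher against a floor of 3 counts per library. Irx3 had 5.65 and 5.87 CPM against 0.0544 and 0.0394, and Irx2 had 7.66 and 8.65 CPM against 0.517 and 0.907. Trp63, which marks basal cells of squamous epithelium, had 7.55 and 7.93 CPM against 0.381 and 0.473. The levels of Irx5 and Trp63 in E14 forestomach were 52.4 to 55.0 and 455 to 458 CPM. Smaller differences were found for the pioneer factor Foxa2 (log2 fold change 1.93, SE 0.31), Prox1 (1.70, SE 0.48), the nuclear receptor Esrrg (1.57, SE 0.22) and the forkhead factor Foxq1 (1.05, SE 0.19). The 2 exceptions were Tbx3, a T-box factor, at 4.2 and 4.4 CPM against 52.4 and 60.5, and Gata5, at 21.4 and 25.7 CPM against 45.4 and 51.8. Gata4 and Gata6, which act in both organs, were not called, at log2 fold changes of 0.40 (SE 0.21) and -0.12 (SE 0.19). Leaving out any 1 library ended the calls of Irx2 (adjusted p 0.0653 to 0.227), Prox1 (0.051 to 0.299) and Gata5 (0.0571 to 0.179). Foxq1 lost its call without hindstomach replicate 2 (log2 fold change 0.99) or small intestine replicate 1 (0.98).

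**Figure D3:**
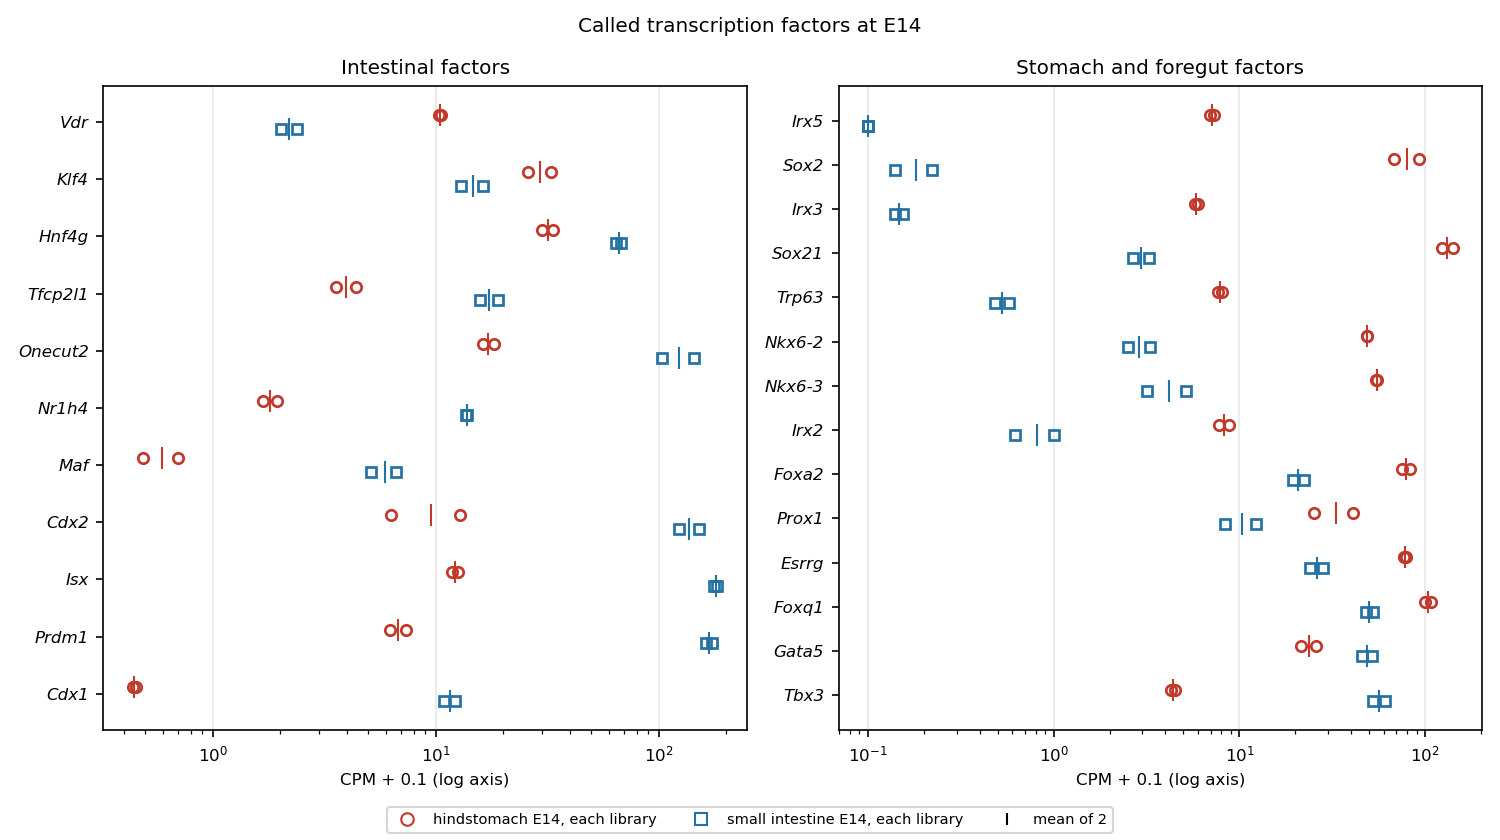
CPM plus 0.1 (log axis) of each called transcription factor in the 4 E14 libraries, red circles for hindstomach and blue squares for small intestine, with a tick at the mean of 2. In the left panel the small intestine squares lie to the right for 9 of 11 genes, and in the right panel the hindstomach circles lie to the right for 12 of 14.

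Hox genes assign position along the body axis. Of 35 tested, 8 were lower in hindstomach, 1 was higher and 26 were not called. Group means of these genes reached at most 7.72 CPM, that of Hoxb2 in small intestine. Hoxb2 had 1.94 and 1.69 CPM in hindstomach against 8.07 and 7.38 in small intestine, and Hoxb5 had 0.247 and 0.301 CPM against 2.33 and 1.89. Hoxb3 had 0.318 and 0.489 CPM against 1.92 and 2.09. Both hindstomach libraries had 0 counts of Hoxd4, Hoxb6 and Hoxa7, which makes them at least 8.11-fold, 6.28-fold and 3.12-fold lower against the floor of 3 counts per library. Hoxb7 and Hoxc8 had 1 and 2 counts in hindstomach in all, ratios of small intestine to hindstomach of 35.6 (95% exact counting interval 6.16 to 1430) and 30.0 (8.11 to 251). Hoxc4 was the exception, with 8.996 and 6.204 CPM in hindstomach and 1.40 and 1.06 in small intestine (log2 fold change 2.60, SE 0.41). With 1 library left out, 2 to 4 Hox genes were lower and 1 was higher, and with only these 4 libraries fitted 11 and 2. Hoxb6, Hoxa7 and Hoxb3 lost their calls whichever library was left out (adjusted p 0.0517 to 0.234). Hoxd4 and Hoxb7 lost theirs without either hindstomach library (0.071 to 0.146), Hoxb7 also without small intestine replicate 2 (0.0536), and Hoxc8 without hindstomach replicate 1 or small intestine replicate 1 (0.149 and 0.0691). Mesenchyme markers took the larger share of counts in small intestine (0.0422% and 0.0491% against 0.0170% and 0.0184%), and their part in these differences was not tested. At E16, when the same markers took 0.900% and 0.937% of hindstomach counts and 0.166% and 0.182% of small intestine counts, 4 of these 8 genes were called higher in hindstomach (Hoxb2, Hoxb3, Hoxb5 and Hoxd4, at log2 fold changes of 1.92, 2.46, 1.76 and 4.64), beside 17.5% of all genes tested. The other 4 were not called, at 1.39 for Hoxb6, 0.42 for Hoxb7, -1.06 for Hoxa7 and -3.46 for Hoxc8. The part of mesenchyme in these E16 values was not tested either.

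Many genes of the absorptive enterocyte were lower in hindstomach. Of 20 apolipoprotein and lipid handling genes, 11 were lower and 0 higher, with a median log2 fold change of -1.79. Between 8 and 11 were lower without 1 of the libraries. Apob, the backbone protein of chylomicrons, had 2.15 and 1.47 CPM in hindstomach and 238 and 211 in small intestine (log2 fold change -6.95, SE 0.45, adjusted p = 4.24e-09). Fabp1, a cytoplasmic fatty acid binding protein, had 0.353 and 0.639 CPM against 53.5 and 43.7. Also lower were Fabp2, Mttp, which loads lipid onto Apob, and Dgat2 and Mogat2, which build triglycerides, at log2 fold changes of -4.42, -2.26, -1.92 and -2.04.

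Brush border structure followed, with 8 of 19 genes lower and 0 higher, and 6 to 7 lower with 1 library left out. DESeq2 called 0 higher in this list, the lipid list and the enzyme list, and edgeR fitted to only these 4 libraries called 1, 0 and 1 higher, as many as at an unadjusted p under 0.05. The wild-type libraries alone also gave 1 higher in the enzyme list. Myo7b, a myosin of the microvillar tip, had 1.38 and 1.43 CPM against 56.0 and 70.8, and Cdhr5, an adhesion protein between microvilli, had 2.12 and 2.48 CPM against 39.3 and 42.2. Vil1, which bundles actin in microvilli, was less different, at 27.7 and 32.3 CPM against 147 and 151. Digestive enzymes and transporters of this border were lower in 11 of 26 cases and higher in 0. The starch-digesting enzyme Mgam had 2.61 and 1.32 CPM against 43.7 and 46.8, and the metalloprotease Mep1a 0.600 and 0.827 CPM against 11.6 and 13.1. Anpep, an aminopeptidase, was already at 52.5 and 50.5 CPM in hindstomach, against 104 and 125. With 1 library left out, 6 to 8 of these 26 genes were lower. Mep1a was not called without either hindstomach library (adjusted p 0.138 and 0.0937).

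Among genes with a mean of at least 5 CPM over the 4 libraries of both organs, the 10 largest differences of lower genes included those of Apob and Fabp1, and also receptors and a transcription factor. Lpar3, a lysophosphatidic acid receptor, had 1 and 0 counts in hindstomach against 22.02 and 20.04 CPM in small intestine, a ratio of 1180 (95% exact counting interval 212 to 46700). Muc13, a transmembrane mucin of the intestinal surface, had 0.282 and 0.301 CPM against 126 and 115. Cps1, a urea cycle enzyme, had 1.69 and 2.07 CPM against 454 and 578 (log2 fold change -8.10, SE 0.97). Osr2, a zinc-finger factor, had 0.106 and 0.301 CPM against 65.8 and 58.9. Pth1r, the receptor of parathyroid hormone, had 0.600 and 1.05 CPM against 119 and 122. Also among them were Cbln2, a secreted synapse organizer, at 0.459 and 0.226 CPM against 37.9 and 37.0, and 2610528A11Rik, at 0.141 and 0.150 CPM against 19.4 and 15.1. Cbln2 was not called without either hindstomach library (adjusted p 0.0703 and 0.0913). Osr2 was also called lower in hindstomach at E16, at a log2 fold change of -2.88. Mesenchyme markers took 0.0422% and 0.0491% of small intestine counts and 0.0170% and 0.0184% of hindstomach counts at E14, and their part in the Osr2 difference was not tested. Pth1r was called the other way at E16 (log2 fold change 1.73), when those markers took the larger share in hindstomach, and their part was not tested there either.

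Promoter sequences from RefSeq (build GRCm38.p6, 250 bases before to 50 after the start) were searched for 4 short motifs on both strands. The letters searched were TTTATNG for the CDX type and CAAAGTCCA for the HNF4 type. For the zinc-finger GATA factors they were AGATAA, and for the SOX type they were ACAATG. Overlaps between motifs were allowed. Symbols matched for 441 of 601 higher genes, 404 of 577 lower genes and 12705 of 17239 tested genes, which had 591, 520 and 16017 promoters. The HNF4-type letters were in 12 of the 520 promoters of lower genes (2.31%), in 3 of the 591 of higher genes (0.508%) and in 0.518% of those of all tested genes. The CDX-type letters were in 12.5%, 9.14% and 7.54%, the GATA type in 8.85%, 9.98% and 7.40%, and the SOX type in 7.50%, 7.45% and 8.08%. Of all 32851 promoters in the table, 10.9% held the CDX type, 0.475% the HNF4 type, 11.2% the GATA type and 12.6% the SOX type. The 12 promoters of lower genes with HNF4-type letters include those of Cyp2c65, Cyp2c67 and Cyp2c68, of the same gene family, and may not be independent. These shares are descriptions, and a match is neither a bound site nor a cause.

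Of the called factors with a promoter in the table, 2 of 7 intestinal (Tfcp2l1 and Nr1h4), 3 of 9 stomach and foregut (Nkx6-2, Foxa2 and Esrrg) and 1 of 3 Hox genes (Hoxd4) held any of these motifs. The promoters of 4 genes lower in hindstomach, which do not represent all called genes, show where these letters sit around the start. Capitals mark the motifs in the promoters that follow, each given 5′ to 3′ on the gene's strand, and a match may be on either strand. Muc13 and Alpi, an intestinal alkaline phosphatase (0.811 and 1.47 CPM in hindstomach, 7.63 and 6.35 in small intestine), were chosen after their values were seen because they hold the HNF4-type letters, which Alpi carries beside a CDX-type match. Hoxd4 and Tfcp2l1 are lower genes with CDX-type matches.
Muc13 (chr16:33794239-33794538, + strand, HNF4 type in capitals): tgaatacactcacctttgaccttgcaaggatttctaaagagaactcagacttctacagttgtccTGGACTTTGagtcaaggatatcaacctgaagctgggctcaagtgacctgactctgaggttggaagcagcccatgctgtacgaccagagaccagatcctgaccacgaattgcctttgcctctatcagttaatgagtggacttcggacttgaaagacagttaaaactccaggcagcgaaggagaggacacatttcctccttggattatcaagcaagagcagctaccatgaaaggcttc
Alpi (chr1:87101557-87101856, - strand, CDX type, then HNF4 type, in capitals): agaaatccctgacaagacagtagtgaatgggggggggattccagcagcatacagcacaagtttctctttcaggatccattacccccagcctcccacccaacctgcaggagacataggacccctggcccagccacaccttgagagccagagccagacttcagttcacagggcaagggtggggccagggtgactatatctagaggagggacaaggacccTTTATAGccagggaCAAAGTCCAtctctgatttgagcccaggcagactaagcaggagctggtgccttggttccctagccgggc
Hoxd4 (chr2:74721728-74722027, + strand, 3 CDX-type matches in capitals): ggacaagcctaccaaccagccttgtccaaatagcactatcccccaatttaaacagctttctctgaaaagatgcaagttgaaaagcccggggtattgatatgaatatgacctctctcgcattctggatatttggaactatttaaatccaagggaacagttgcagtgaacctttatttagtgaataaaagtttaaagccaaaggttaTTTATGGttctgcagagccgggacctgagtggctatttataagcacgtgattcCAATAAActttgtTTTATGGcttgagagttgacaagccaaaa
Tfcp2l1 (chr1:118627695-118627994, + strand, CDX type in capitals): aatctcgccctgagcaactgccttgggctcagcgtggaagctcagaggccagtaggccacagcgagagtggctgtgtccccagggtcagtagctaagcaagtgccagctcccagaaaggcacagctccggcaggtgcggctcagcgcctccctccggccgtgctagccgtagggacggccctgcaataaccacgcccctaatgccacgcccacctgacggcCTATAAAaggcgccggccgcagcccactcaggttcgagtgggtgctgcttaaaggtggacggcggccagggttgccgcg

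Gastric secretory and mucous genes were higher in hindstomach in 10 of 22 cases, lower in 1 and not called in 11, with a median log2 fold change of 1.93. Leave-outs of a library gave 7 to 9 higher and 0 to 1 lower. Anxa10, an annexin of gastric epithelium, had 38.2 and 40.5 CPM in hindstomach and 1 and 0 counts in small intestine, a ratio of 3880 (95% exact counting interval 696 to 153000). Muc5ac, the mucin of gastric surface cells, had 27.1 and 24.3 CPM and again 1 and 0 counts, a ratio of 2550 (456 to 101000). Cldn18, a tight junction protein of the stomach, had 300.3 and 262 CPM against 5.70 and 4.58 (log2 fold change 5.76, SE 0.35, adjusted p = 4.77e-09). Atp4b, the beta subunit of the acid pump, had 7.87 and 8.05 CPM against 0 counts, at least 100-fold higher against the floor. The aspartic protease Ctse and the junction protein Vsig1 had log2 fold changes of 3.36 and 3.51. Dmbt1, a mucin-like glycoprotein, was the lower member, at 4.30 and 4.10 CPM against 7.80 and 9.58. It lost its call without hindstomach replicate 2 (adjusted p 0.0521) or small intestine replicate 2 (log2 fold change -0.90).

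The 10 largest differences of higher genes, with the same minimum mean over both organs (which leaves out Irx5, Irx3 and Fgf20 among others), were those of Anxa10, Muc5ac, Sox2 and 7 more. Cym, the milk-clotting protease chymosin, had 1063 and 1130 CPM in hindstomach against 16.1 and 13.7 in small intestine (log2 fold change 6.20, SE 0.35). In E14 forestomach Cym stood at 1270 and 1254 CPM. Bpifb1, a secreted defence protein, had 77.9 and 77.6 CPM against 0.721 and 0.552. Spock1, a proteoglycan, had 67.1 and 64.0 CPM against 0.857 and 0.316, and Abi3bp, an extracellular matrix protein, had 47.4 and 43.4 CPM against 0.463 and 0.710. Myo16, an unconventional myosin, differed between its hindstomach libraries, at 38.2 and 18.8 CPM, but both stood above 0.395 and 0.158. Ms4a8a, a four-span membrane protein, and Adam28, a metalloprotease, had 18.9 and 17.1 CPM against 0.272 and 0.197, and 18.5 and 19.3 CPM against 0.381 and 0.197.

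Mucin and goblet cell genes were divided, with 7 of 17 higher in hindstomach and 2 lower. Ern2, a stress sensor of the mucus-secreting endoplasmic reticulum, had 33.5 and 32.3 CPM against 0.912 and 0.592. Agr2, which folds mucins, Creb3l1, Spdef, Muc1 and Muc4 were also higher, at log2 fold changes of 4.64, 2.43, 1.89, 2.87 and 2.98. Muc13 and Tff3, a trefoil peptide of intestinal goblet cells (2.51 and 2.93 CPM against 17.1 and 14.6), were the 2 lower genes. Muc2, the secreted intestinal mucin, was at 0.988 and 0.865 CPM against 0.177 and 0.276 and was not called (adjusted p = 0.277). Muc20, at 2.33 and 1.92 CPM against 5 counts in small intestine in all, lost its call whichever library was left out (adjusted p 0.0753 to 0.271).

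**Figure D4:**
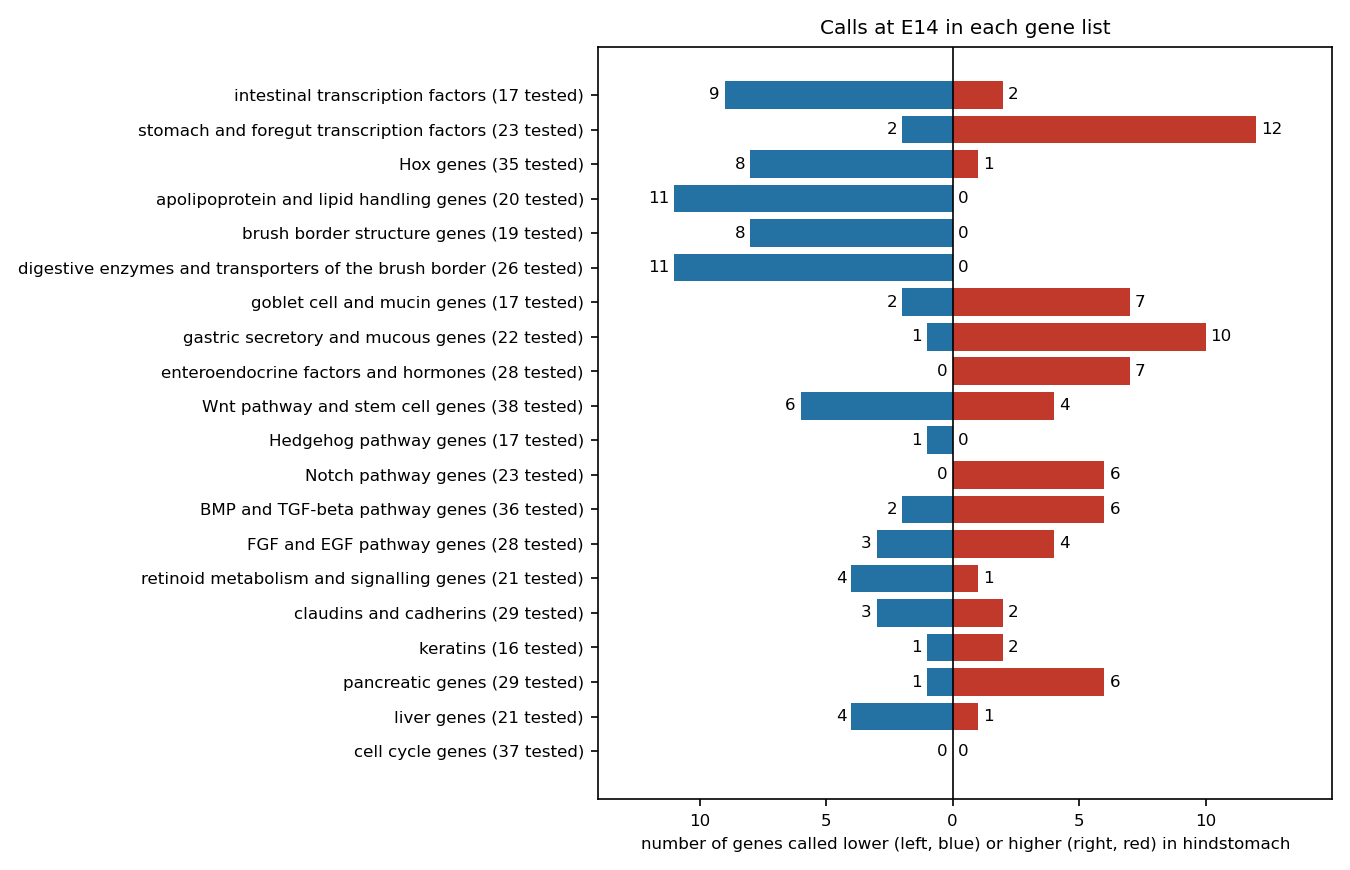
Number of genes in each list called higher (red, to the right) or lower (blue, to the left) in hindstomach at E14, with the number tested in brackets. Lipid handling, brush border structure and digestive enzyme lists hold 11, 8 and 11 lower genes and no higher gene, and the gastric list holds 10 higher genes.

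Enteroendocrine genes were higher in 7 of 28 cases and lower in 0 by edgeR, and in 13 and 0 by DESeq2. In edgeR there were 15 higher and 1 lower when the wild-type embryonic libraries alone were fitted, and 20 and 1 when only these 4 libraries were. At an unadjusted p under 0.05, 20 were higher and 0 lower. Neurog3, the factor that starts endocrine differentiation, had 91.0 and 88.7 CPM in hindstomach against 19.1 and 13.8 in small intestine (log2 fold change 2.45, SE 0.54, adjusted p = 0.00558). Isl1, a LIM homeodomain factor, had 42.5 and 45.7 CPM against 4.00 and 2.09, Nkx2-2 had 38.7 and 40.2 against 8.03 and 9.03, and the granule proteins Chga and Chgb had log2 fold changes of 2.82 and 2.68. Both hindstomach values lay above both small intestine values in every case, beside 65.6% of all tested genes whose groups did not overlap in either direction. With 1 library left out, 1 to 4 members were called. Nkx2-2 lost its call whichever library was left out (adjusted p 0.10 to 0.184), Neurog3 without hindstomach replicate 1 or either small intestine library (0.0524 to 0.0785), and Isl1 and Chga without small intestine replicate 2 (0.0652 and 0.0607).

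Some pancreatic genes were also higher in hindstomach. The 30 pancreatic markers took 0.247% and 0.255% of hindstomach counts and 0.0608% and 0.0563% of small intestine counts, and their part in the endocrine result was not tested. Of 29 tested, 6 were higher, 1 was lower and the median log2 fold change was 2.16. This count depended on the fit: 3 were higher with 1 library left out, 15 (and 0 lower) when the wild-type embryonic libraries alone were fitted, and 20 (and 1 lower) when only these 4 libraries were. The protease gene Prss2 had 5.72 and 6.62 CPM against 0.381 and 0.394, and Clps, the cofactor of pancreatic lipase, had 144 and 145 against 42.0 and 34.7. Cpa1, a procarboxypeptidase gene, had 491 and 505 CPM against 160 and 143 and missed the threshold (log2 fold change 1.72, SE 0.64, adjusted p = 0.106). It was called at a like fold when only the wild-type embryonic libraries (1.75, adjusted p = 9.08e-06) or only these 4 libraries (1.74, 5.14e-05) were fitted. Gp2 had 0 counts in hindstomach replicate 1 and in both small intestine libraries. The hormone gene Iapp, at 24.1 and 23.5 CPM against 4.84 and 3.51, lost its call whichever library was left out (adjusted p 0.144 to 0.229), and the lower gene, Pnliprp2, lost it without either hindstomach library or small intestine replicate 1 (0.0821 to 0.228). Prss2 has close copies, and reads shared among them could have been counted apart.

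Liver genes, some of which the fetal gut also makes, took 0.0204% and 0.0219% of hindstomach counts and 0.101% and 0.117% of small intestine counts. Of 21 tested, 4 were lower and 1 higher (6 and 2 with only these 4 libraries fitted). Cps1, described with the largest differences, led the lower ones. In small intestine Cps1 alone made up most of the liver share, at 33328 of 62463167 counts and 14659 of 20458113. Trf, the iron carrier transferrin, had 14.4 and 15.2 CPM against 115 and 114, and Afp, alpha-fetoprotein, had a log2 fold change of -2.52 (SE 0.31). Itih2, a matrix-binding protein, was higher at 16.8 and 18.3 CPM against 0.667 and 0.907, though not called without small intestine replicate 1 (adjusted p 0.0609).

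Signalling genes were mixed. Of 17 Hedgehog genes 1 was called by edgeR and by DESeq2, beside 6.83% of all genes, and 3 were called, all lower, when only these 4 libraries were fitted. It was the secreted ligand Shh, at 42.8 and 51.7 CPM in hindstomach and 176 and 213 in small intestine (log2 fold change -2.04, SE 0.27, adjusted p = 3.33e-05). Ihh, the second ligand of gut epithelium, was not called, at 224 and 254 CPM against 170 and 171. Of 23 Notch genes, 6 were higher and 0 lower by both edgeR and DESeq2, 8 and 0 at an unadjusted p under 0.05, and 10 and 0 with only these 4 libraries fitted. The 6 were the ligands Dll1, Dll4 and Jag1 (log2 fold changes 1.16, 1.70 and 1.51), the co-activator Maml2 (1.70), the glycosyltransferase Mfng (1.95) and Nrarp, a target gene that limits the signal, at 25.3 and 20.5 CPM against 5.61 and 5.84. With 1 library left out, 1 to 4 Notch genes were called, and Mfng was never among them (adjusted p 0.111 to 0.323).

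In the BMP and TGF-beta list 6 of 36 genes were higher and 2 lower (3 to 5 and 1 to 2 with 1 library left out, 10 and 5 with only these 4 libraries fitted). The BMP target genes parted: Id4 had 108 and 106 CPM against 2.23 and 1.85 (log2 fold change 5.69, SE 0.36), Id1 and Id3 had log2 fold changes of 1.46 and 1.58, and Id2 was lower at 212 and 234 CPM against 631 and 546. The receptors Bmpr1a and Bmpr1b were higher (1.05 and 2.67), as was Inhbb, an activin subunit, at 3.60 and 3.80 CPM against 0.259 and 0.592. The ligand Bmp4 was lower, at 0.670 and 0.263 CPM against 2.97 and 3.47. Inhbb lost its call whichever library was left out (adjusted p 0.109 to 0.384), and Bmp4 without hindstomach replicate 2 (0.15).

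Wnt and stem cell genes numbered 4 higher and 6 lower of 38 (0 to 3 and 3 to 5 with 1 library left out, 7 and 7 with only these 4 libraries fitted). Notum, which inactivates Wnt ligands, had 7.13 and 7.07 CPM against 0.327 and 0.355, and the Wnt receptor Fzd10 had 0.600 and 0.451 CPM against 9.47 and 9.27. Dkk2, a secreted modulator, had 2 counts in each hindstomach library against 3.27 and 2.52 CPM in small intestine. It was called higher in hindstomach at E16 (log2 fold change 4.68), where the share of mesenchyme markers was also the other way round, and their part was not tested. Sfrp5, a secreted protein that binds Wnt ligands, had 46.7 and 48.8 CPM against 223 and 224. Olfm4, at 2.75 and 2.71 CPM against 1.16 and 0.710, and Dkk2 lost their calls whichever library was left out (adjusted p 0.0836 to 0.137 and 0.0552 to 0.211). Notum lost its call without small intestine replicate 1 (0.0954), and Fzd10 without either hindstomach library (0.0712 and 0.0876).

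FGF and EGF genes numbered 4 higher and 3 lower of 28 (1 to 4 and 1 to 3 with 1 library left out, 9 and 4 with only these 4 libraries fitted). Fgf20, a secreted FGF, had 7.94 and 9.93 CPM in hindstomach against 0 and 3 counts in small intestine, a ratio of 293 (95% exact counting interval 99.8 to 1430). The FGF target Etv5 and the receptor Erbb2 had log2 fold changes of 1.40 and 1.07. The EGF-family ligands Areg and Hbegf were lower, at 0.0353 and 0.301 CPM against 3.36 and 1.81, and at 7.87 and 8.99 CPM against 36.3 and 28.2. Fgf20 was not called without small intestine replicate 1 (adjusted p 0.0872), nor Hbegf without hindstomach replicate 1 or small intestine replicate 1 (0.08 and 0.0595).

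Of 21 retinoid genes, 1 was higher and 4 were lower by edgeR, 2 and 4 by DESeq2, and 4 and 5 by edgeR with only these 4 libraries fitted. Crabp2, which carries retinoic acid to its receptors, had 11.15 and 11.02 CPM against 0.517 and 0.907. Aldh1a2, which makes retinoic acid, had 1.80 and 1.58 CPM against 9.62 and 8.40, and Rbp4, the retinol carrier, had 75.6 and 76.6 CPM against 315 and 269. At E16 Aldh1a2 was called the other way (log2 fold change 1.29). The mesenchyme markers took the larger share in small intestine at E14 and in hindstomach at E16, and their part in this gene's values was not tested.

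Among 29 claudins, cadherins and junction genes, Cldn18 and Cldn10 were higher and Cldn2, Cldn8 and Cdh17 lower, and 4 genes were called each way with only these 4 libraries fitted. Cdh17, the liver-intestine cadherin, had 23.9 and 23.2 CPM against 309 and 353, and Cldn2, which forms cation pores, had 1.06 and 1.84 against 16.4 and 19.1. Cldn10 had 39.2 and 39.6 CPM against 12.9 and 10.1. Cdh17 lost its call without either hindstomach library (adjusted p 0.0931 and 0.0874).

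Of 16 keratins, Krt15 and Krt5 of basal squamous cells were higher and Krt20 of mature surface cells was lower. There were 4 higher with the wild-type libraries alone, 5 with only these 4 libraries and 1 after thinning, each with 1 lower. Krt15 had 16.7 and 16.9 CPM against 0.925 and 0.947, Krt5 had 2.36 and 2.78 against 0.0953 and 0.355, and Krt20 had 6.63 and 3.65 against 27.1 and 16.3. The squamous marker list took 0.00844% and 0.00864% of hindstomach counts and 0.00309% and 0.00348% of small intestine counts, with 4 of 9 members called higher. Krt14, Krt13 or Dsg3 was at 0 in 1 hindstomach library each. In E14 forestomach Krt15 stood at 1302 and 1369 CPM, and the part of forestomach cells in the hindstomach values was not tested. Krt5 lost its call whichever library was left out (adjusted p 0.0891 to 0.491). Of 37 cell cycle genes, 0 were called by edgeR and by DESeq2, 4 were higher and 7 lower at an unadjusted p under 0.05, and their median log2 fold change was -0.09.

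The comparison was then set beside libraries labelled hindstomach and small intestine at E12 and E16, none of which it shares. The libraries labelled E12 hindstomach went against that label in some genes and with it in others. They held 3 posterior Hox genes, chosen after their values were seen, at levels above those of both organs at E14, with Hoxa10 at 104 and 120 CPM, Hoxa9 at 52.2 and 41.9 CPM and Hoxb13 at a mean of 154.5 CPM. Hoxb13 had a mean of 0.0836 CPM in E12 small intestine, 0.0176 CPM in E14 hindstomach and 0 counts in E14 small intestine. They also held Cdx2 at 116 and 160 CPM, beside 153 and 115 CPM in E12 small intestine, and Cldn18 at 0.308 and 0.0599 CPM. Anxa10 and Muc5ac were at 0 counts in these libraries and in E12 small intestine alike. Called higher in the libraries labelled E12 hindstomach, as at E14, were Sox2 (log2 fold change 1.56), Sox21 (2.00), Irx5 (4.88), Trp63 (3.10) and Krt15 (5.72). Of the 23 stomach and foregut factors, however, 4 were called higher in these libraries and 9 lower. Differences from E12 are therefore given as differences from the libraries so labelled.

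Of the 601 genes higher at E14, 401 (66.7%, or 13.3% of the 3025 called higher at E16) were also higher at E16, 29 were called the opposite way and 171 were not called. Of the 577 lower genes, 254 (44%, or 18.2% of the 1397 lower at E16) were also lower, 103 went the opposite way and 220 were not called. At E16 17.5% of tested genes were higher and 8.1% lower. At E12 121 of the 601 were also higher (20.1%, or 12.5% of the 966 higher there) and 95 lower, and 107 of the 577 were also lower (18.5%, or 16.9% of the 633 lower there) and 57 higher. At E12 5.6% of tested genes were higher and 3.67% lower.

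By list, the stomach and foregut factors had 14 higher and 0 lower at E16, against 12 and 2 at E14 and 4 and 9 at E12. The intestinal factors had 0 higher and 10 lower at E16, against 2 and 9 at E14 and 1 and 5 at E12. The lipid list had 17 of 20 lower at E16, the digestive enzyme list 21 of 26 and the gastric list 18 of 22 higher. Within the organs, Cym reached 23160 and 21770 CPM in E16 hindstomach and Fabp1 1855 and 1813 CPM in E16 small intestine. Apob stood at 24.8 and 26.6 CPM in E16 hindstomach, above its E14 values there, and at 959 and 804 CPM in E16 small intestine.

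The test of the difference itself (an interaction term in the same fit) called 636 genes (3.69%) with a higher and 720 (4.18%) with a lower log2 fold change at E14 than between the libraries labelled E12. Of the stomach and foregut factors 14 of 23 had a higher and 1 a lower value, and of the intestinal factors 1 of 17 had a higher and 6 a lower one. Cdx2, at 116 and 160 CPM in the E12 hindstomach libraries and 12.7 and 6.20 CPM in those of E14, had an interaction of -3.90 on the log2 scale (SE 0.42, adjusted p = 4.65e-06). Prdm1, at 89.0 and 94.8 CPM in the E12 hindstomach libraries and 82.2 and 71.6 in E12 small intestine, had an interaction of -4.90. Sox2, at 20.6 and 9.07 CPM and at 6.63 and 3.41, had one of 8.03, and Cldn18 one of 8.69. Cym, at 0.246 and 0 CPM in E12 hindstomach and 4.36 and 2.23 in E12 small intestine, had an interaction of 10.90. Nkx6-2 was on the other side at E12, with 1 count in each hindstomach library and 20.6 and 18.4 CPM in small intestine, and had an interaction of 13.20. Where a group had so few counts, the fitted value depends on the prior count and bounds nothing. Without E12 small intestine replicate 2 the counts of genes were 1065 and 2483, and without each of the other 7 libraries of this test in turn they were 405 to 724 and 407 to 688. The 8 libraries alone gave 307 and 319 genes. The 2 E12 small intestine libraries also differed from each other, with 13232 genes with counts in replicate 1 and 15507 in replicate 2. Cdh17, for example, had 0.2029 and 25.55 CPM in them.

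Against E16 the interaction called 675 genes (3.92%) with a higher and 1580 (9.17%) with a lower value at E14. Cdx2 was not among them, at 0.18 (SE 0.41, adjusted p = 0.85), a value that became -0.43 without E14 hindstomach replicate 1. Mesenchyme markers took 0.900% and 0.937% of E16 hindstomach counts and 0.166% and 0.182% of E16 small intestine counts, and immune markers 0.103% and 0.127% against 0.0294% and 0.0277%. Nerve and glia markers took 0.0992% and 0.10% against 0.0101% and 0.0110%, those of red blood cells 0.125% and 0.177% against 0.0193% and 0.0197%, and those of endothelium 0.0193% and 0.0287% against 0.00565% and 0.00701%. Liver markers took 0.0401% and 0.0379% against 0.458% and 0.410%, and pancreas markers 0.773% and 0.845% against 0.242% and 0.228%. Cps1 made up most of the liver share in E16 small intestine, at 75295 of 18306362 counts and 61488 of 16685602. The part of these marker lists in the E16 results was not tested. Leaving out 1 of the 8 libraries gave 527 to 601 genes with a higher and 1015 to 1270 with a lower value. The 1032 and 1015 came without either E14 hindstomach library, and the 8 libraries alone gave 1285 and 2528.

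**Figure D5:**
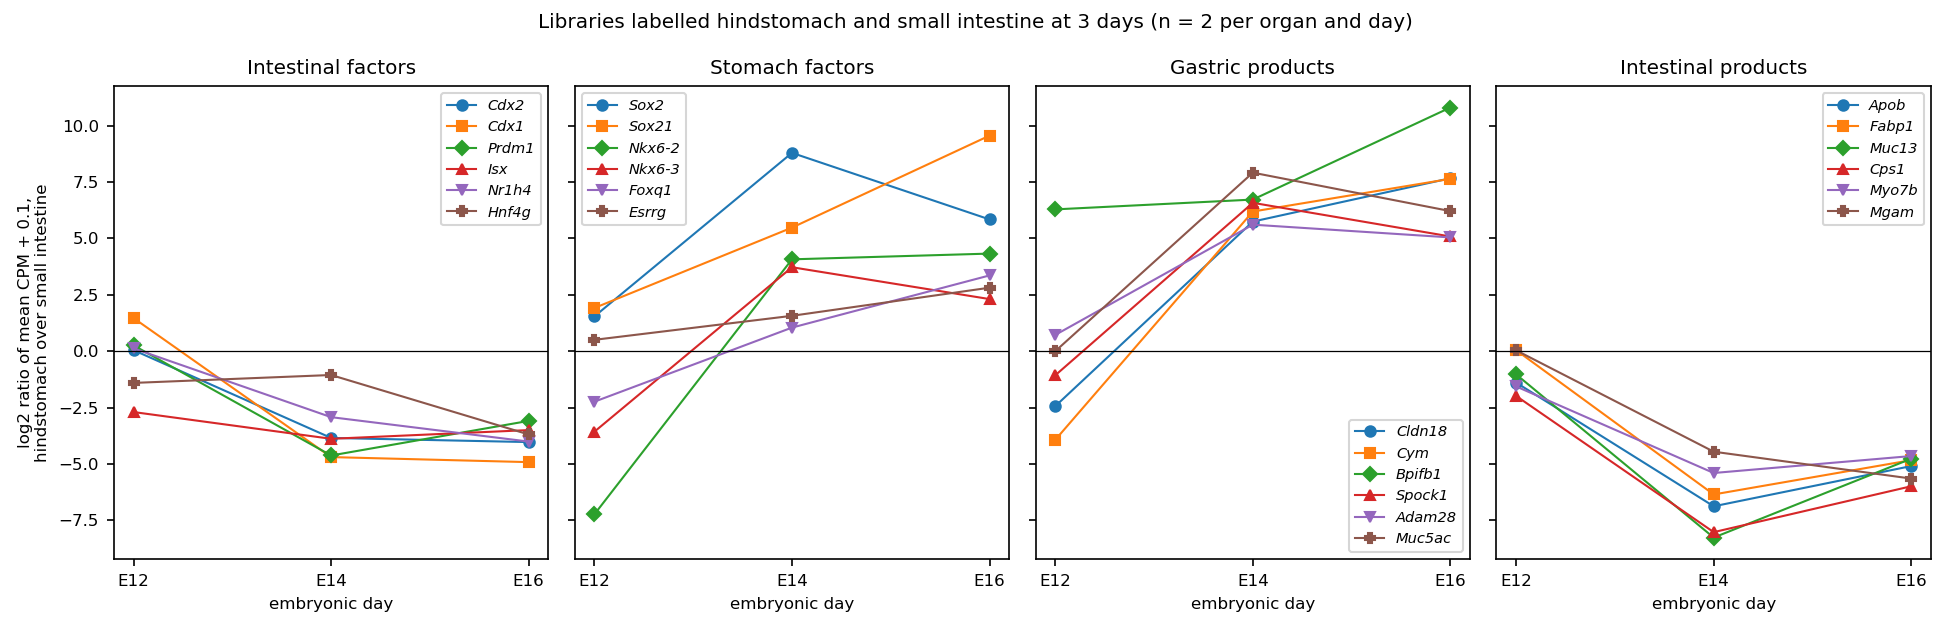
Log2 ratio of the mean CPM plus 0.1 in libraries labelled hindstomach over those labelled small intestine (n = 2 each) at E12, E14 and E16 for 24 named genes in 4 groups. Intestinal factors lie near or above 0 at E12 except Isx and Hnf4g and below 0 at E14 and E16, while the stomach factors and gastric products lie above 0 at E14 and E16.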

How the data were processed

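RNA-seq of sorted Epcam+ epithelium was analysed. Chromatin samples of the series were not used here. The authors deposited 1 table of raw read counts per gene for the whole series, and 6 of its columns were not used. Reads were 75 bases and single-end, per the labels' protocols, and STAR 2.5.3a, HTSeq, Bowtie2, MACS2 and the mm9 build are named in the submitters' processing notes without their roles. Whether counting used strand is not given in the sources used here, so overlapping genes and near-identical copies are uncertain. All 27 embryonic libraries, in 13 groups, including 7 of Cdx2-/- small intestine, were fitted together with edgeR 4.0.16 (R 4.3.3): TMM scaling, filterByExpr with a minimum count of 10 (17239 of 24015 genes kept), the quasi-likelihood test and Benjamini-Hochberg adjustment over all tested genes. The SE is the log2 fold change over the square root of its F statistic. DESeq2 1.42.0, other scalings and filters, thinning and leaving out libraries were alternatives. The code was tested on simulated data. The floor was 3 counts per library, and intervals are 95% and cover counting error only, since reads are not independent molecules. Genes were named by rule: Cdx2, all called transcription factors and Hox genes, the 2 largest changes per direction of each other list, the 10 largest per direction at 5 CPM or more, and the 5 largest per direction of each interaction. Other list members were chosen after their values were seen. The lists and the comparison were chosen with earlier results of these data known. Some genes that the rule names are not reported here.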

Additional observations from a re-analysis of the deposited data

Results flagged for a closer look

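The difference between hindstomach and small intestine was not the same at E14 as at the other days, by an interaction test in edgeR with Benjamini-Hochberg adjustment over 17239 genes. Against the libraries labelled E12, 636 genes had a higher and 720 a lower log2 fold change at E14, and against E16, 675 and 1580. The libraries labelled E12 hindstomach went against that label in their Hox genes, so the first pair of counts compares E14 with those libraries.

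Among the transcription factors and gastric genes, the E14 value minus the E12 value was -3.90 for Cdx2, 8.03 for Sox2, -4.90 for Prdm1, 13.20 for Nkx6-2, 8.69 for Cldn18 and 10.90 for Cym. Among genes with a mean of at least 5 CPM over the 8 libraries of an interaction, the largest positive values were 17.15 for Cpa1, 14.70 for P2rx1, an ATP-gated channel, 13.84 for Nkx2-2, 13.44 for Neurod1 and 13.30 for Neurog3. All 5 were listed at 0 in both libraries labelled E12 hindstomach, and in E12 small intestine Cpa1 stood at 231 and 224 CPM and Neurog3 at 10.6 and 8.54 CPM. The most negative values at that level were -13.86 for Hoxa10, -11.80 for Foxd2os, -11.70 for Tfec, -10.86 for Slc15a2 and -10.81 for Hoxa9. Tfec, a transcription factor, had 10.1 and 8.23 CPM in the E12 hindstomach libraries and was at 0 in E12 small intestine, against 8.01 and 7.37 CPM and 14.3 and 14.5 CPM at E14. Slc15a2, a peptide transporter, likewise had 16.3 and 16.3 CPM and 0 at E12. With groups at or near 0 these fitted values depend on the prior count and are no bounds. Without E14 small intestine replicate 1, Hoxa10, Foxd2os and Hoxa9 lost their calls (adjusted p 0.0561, 0.142 and 1). Hoxa10 also lost it without small intestine replicate 2 (0.0695), and Foxd2os without either E14 hindstomach library (0.0752 and 0.0722). When only the groups compared were fitted, Foxd2os (0.0538) and Hoxa9 (0.0632) were not called, and after thinning Hoxa10 (0.0511) and Hoxa9 (0.165) were not.

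Against E16, with the same minimum level, the largest positive values were 8.99 for Mfi2, 8.80 for Ms4a8a, 8.61 for Slc6a19, 8.07 for Mme and 7.54 for Slc34a2. Mfi2, a cell surface iron-binding protein, had 0.423 and 0.752 CPM in hindstomach and 0.748 and 0.473 CPM in small intestine at E14, and 1.11 and 0.261 CPM against 406 and 365 CPM at E16. Mme, a peptidase, was on opposite sides, at 20.4 and 22.5 CPM against 1.18 and 1.42 CPM at E14 and 5.72 and 6.79 CPM against 104 and 96.3 CPM at E16. Ms4a8a was too, with 18.9 and 17.1 CPM against 0.272 and 0.197 CPM at E14, and 3.82 and 3.78 CPM against 26.9 and 21.1 CPM at E16. Slc34a2, a phosphate transporter, lost its call without any 1 E14 library (adjusted p 0.0516 to 0.0966), without E16 hindstomach replicate 1 or either E16 small intestine library (0.0658 to 0.0814) and in DESeq2 (0.149). Slc6a19, an amino acid transporter, lost it without E14 hindstomach replicate 2 (0.251).

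With that minimum level, which leaves out Hoxd4 (-12.06) and Dkk2 (-9.90) among others, the most negative values against E16 were -17.16 for Sfrp4, -13.72 for Fam19a2, -12.75 for Ltf, -10.19 for Cers3 and -9.26 for Cpa3. Sfrp4, a secreted Wnt-binding protein, had 21.0 and 20.2 CPM in E16 hindstomach and was at 0 in E16 small intestine and in E14 hindstomach. Ltf, lactotransferrin, had 163 and 204 CPM in E16 hindstomach against 2.31 and 3.93 CPM, and Cpa3, a mast cell protease, had 26.5 and 46.6 CPM against 4.08 and 9.01 CPM. Mesenchyme markers took 0.900% and 0.937% of counts in E16 hindstomach against 0.166% and 0.182% in E16 small intestine, and immune markers 0.103% and 0.127% against 0.0294% and 0.0277%. Their part in these values was not tested.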

How the results depend on the processing

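Fitting only the groups compared moved every count of calls, to 1440 higher and 1040 lower at E14, 307 and 319 against E12, and 1285 and 2528 against E16. Of the genes called in the fit of all libraries, 587 of 601 and 553 of 577 were called there at E14. Without the fold change minimum, 1121 genes were lower at E14 and 1045 had a higher value than at E16. With 1 library left out, the counts were 305 to 395 higher and 309 to 501 lower at E14, 405 to 1065 and 407 to 2483 against E12, and 527 to 601 and 1015 to 1270 against E16, and the lone library is then assumed to vary like the other groups. Leaving out each E12 or E16 library was chosen after seeing the data. Of 97 called genes named by rule, 60 kept the call in all 4 leave-outs at E14, 37 lost it in at least 1 and 0 changed sign. With the replicate number as a block, 632 genes were higher and 618 lower at E14, 651 and 774 against E12, and 746 and 1665 against E16. The numbers came from the labels and were not shown to pair the libraries (correlation of deviations 0.0973). DESeq2 called 746 and 679 at E14, with no adjusted p for 2011 genes, and 13 enteroendocrine genes in place of 7. The mean Spearman rho between organs was 0.961 and, over all genes with a count, 0.966. The other scaling, the unfiltered table, the wild-type libraries alone and thinning kept the counts over all genes within 1.5 times. Counts within lists moved more: with the wild-type libraries alone 15 enteroendocrine and 15 pancreatic genes were higher in place of 7 and 6, and 4 keratins in place of 2, and with the replicate block 14 enteroendocrine genes were. After thinning 1 keratin was higher, and without the filter 1 intestinal factor in place of 2. Fitting only the groups compared moved more lists, as given beside each, and called 1 cell cycle gene in place of 0. Without the fold change minimum 8 Wnt, 7 FGF, 4 keratin and 2 cell cycle genes were higher. The replicate block and the wild-type libraries alone each called 1 digestive enzyme gene higher in place of 0, and the latter 0 gastric genes lower in place of 1. The median of all genes against E16 shifted by 0.12 when only the groups compared were fitted and by 0.10 with the wild-type libraries alone. Against E12 it shifted by -0.14 without E12 small intestine replicate 2. Depth limits what can be seen of genes with few counts, such as Hoxa7, which was not called after thinning (adjusted p 0.0605). The cause of these changes was not tested.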
